A study of Mus musculus with 4 samples.

Results

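The I-kappa-B family and Tnfaip3 regulate the transcription factor NF-kB, mostly as inhibitors, and their 7 genes were examined for occupancy by Trim33, a chromatin-associated ubiquitin ligase of the TRIM family. The genes are Nfkbia, Nfkbib, Nfkbie, Nfkbid, Nfkbiz, Bcl3 and Tnfaip3. Their peaks were chosen by position: a peak belonged to a gene when its summit, the base of highest signal, lay in the RefSeq body of the gene or within 10 kb of it, a span called the locus here. This gave 19 of the 27050 peaks in the deposited list. The data came from chromatin immunoprecipitation followed by sequencing in Th17 cells, a helper T cell subset named for its cytokine IL-17. Naive CD4+ T cells from spleen and lymph nodes of C57BL/6 mice were cultured on anti-CD3 and anti-CD28 with IL-6 and TGF-beta, while IL-4 and IFN-gamma were blocked by antibodies. The labels give 2 libraries precipitated with a Trim33 antibody and 2 libraries of input DNA made without antibody, from the same kind of culture, with neither a genotype nor a treatment that differs between them. The labels do not say whether the libraries came from separate mice.

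The peaks were called on the merged replicates, so each has 1 value and no spread between cultures. The depth of the libraries is unknown, and no test between conditions could be made. The fold enrichment given below is the authors' value for each peak, a ratio of the signal at the summit to the peak caller's background. It is used only to describe and rank peaks within this list, in which it ran from 1.91 to 54.6 with a median of 6.00 and quartiles of 4.87 and 7.76. Occupancy was measured and transcript levels were not, so neither the activity of these genes nor the identity of the cells could be checked from these values.

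In resting cells NF-kB dimers are held in the cytoplasm by classical I-kappa-B proteins, which bind them through ankyrin repeats. Signals from the T cell receptor or from cytokines activate the I-kappa-B kinase complex, the inhibitors are degraded, and NF-kB enters the nucleus and switches on genes that include its own inhibitors. Atypical I-kappa-B proteins act in the nucleus, where they bind NF-kB dimers on chromatin and can raise or lower transcription. Tnfaip3 encodes A20, a ubiquitin-editing enzyme that shuts down signalling upstream of the kinase complex and is itself an NF-kB target.

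Trim33 peaks were found in the loci of 6 of the 7 genes, and Nfkbib had none. The background was 53.9% of all 21887 protein-coding genes with a summit in the locus. Summits within 1000 bp of an end of the gene body were found at the same 6 genes, against a background of 33.4%. Peaks of 10-fold or more lay in the loci of Bcl3, Nfkbie and Tnfaip3, 3 of the 7 genes, where 10.1% of all protein-coding genes had one. Among protein-coding genes with bodies as long as those of the 7 genes, from 3239 to 27580 bp, 54.9% had a summit in the locus and 8.09% had one of 10-fold or more. Without the Olfr, Vmn, Gm and Rik symbols, 60.8% of protein-coding genes had a summit in the locus. The 7 genes were named as a family with earlier results of these data known, so these counts are a description.

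**Figure D1:**
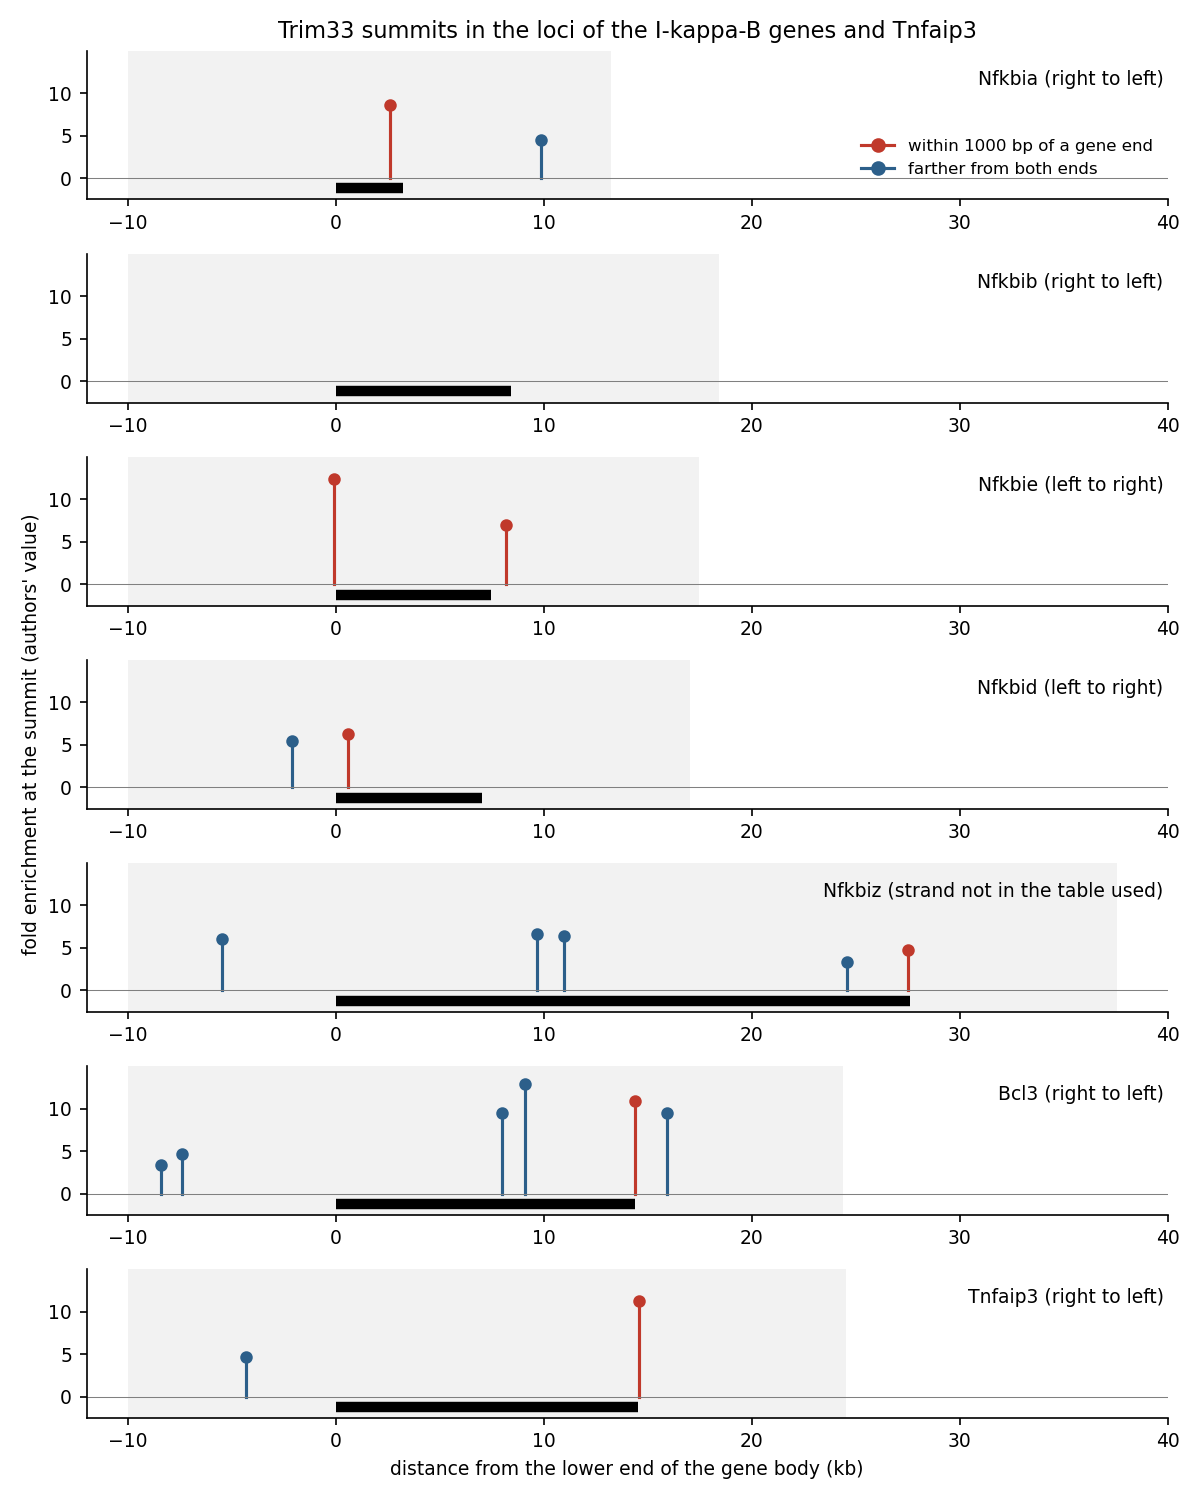
Trim33 summits in the 7 loci. The horizontal axis is the distance in kb from the lower genomic end of the gene body (black bar), grey shading marks the body with 10 kb on each side, and the height of each line is the authors' fold enrichment at the summit. Bcl3 has 6 summits and Nfkbiz 5, Nfkbia, Nfkbie, Nfkbid and Tnfaip3 have 2 each, and Nfkbib has none.

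Promoter sequences of these genes are shown first, because 4 of the summits lay inside windows of such sequence. Of all windows of protein-coding genes, 22.8% held a summit. Matches to the kB consensus, the DNA element of NF-kB, recur in the sequences, and a link between these matches and the peaks was not tested. The sequences are those of RefSeq, build GRCm38.p6 (mm10), in a table with 250 bases before and 50 bases after each listed gene start. The table holds 6 of the 7 genes, all except Nfkbiz. Each line below is written 5′ to 3′ on the strand of the gene and ends at the base before the listed start, except for Bcl3, which ends 70 bases before it, where the gene body of the RefSeq table begins. Capitals mark matches to the kB consensus on either strand.

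Nfkbia, minus strand, chr12:55492648-55492897: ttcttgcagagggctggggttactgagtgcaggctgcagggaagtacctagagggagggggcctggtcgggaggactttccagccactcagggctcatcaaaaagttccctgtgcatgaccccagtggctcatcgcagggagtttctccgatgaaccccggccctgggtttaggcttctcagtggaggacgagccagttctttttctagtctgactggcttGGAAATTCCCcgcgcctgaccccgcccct
Nfkbib, minus strand, chr7:28766645-28766894: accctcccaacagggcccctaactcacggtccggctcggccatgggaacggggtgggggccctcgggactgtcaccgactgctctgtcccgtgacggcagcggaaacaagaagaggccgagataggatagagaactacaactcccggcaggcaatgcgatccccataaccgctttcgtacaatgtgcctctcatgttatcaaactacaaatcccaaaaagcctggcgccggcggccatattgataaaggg
Nfkbie, plus strand, chr17:45555450-45555699: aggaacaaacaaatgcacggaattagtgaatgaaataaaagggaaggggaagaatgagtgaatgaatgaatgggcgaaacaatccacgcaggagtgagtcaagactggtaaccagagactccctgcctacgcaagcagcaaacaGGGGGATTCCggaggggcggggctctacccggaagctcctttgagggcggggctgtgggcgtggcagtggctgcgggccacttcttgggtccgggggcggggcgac
Nfkbid, start 2 of 3, plus strand, chr7:30422156-30422405: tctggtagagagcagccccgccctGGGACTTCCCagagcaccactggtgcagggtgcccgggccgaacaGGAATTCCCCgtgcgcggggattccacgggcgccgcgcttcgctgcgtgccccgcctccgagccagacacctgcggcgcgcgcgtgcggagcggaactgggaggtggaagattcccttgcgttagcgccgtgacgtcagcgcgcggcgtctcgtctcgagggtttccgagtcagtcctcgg
Bcl3, minus strand, chr7:19822825-19823005: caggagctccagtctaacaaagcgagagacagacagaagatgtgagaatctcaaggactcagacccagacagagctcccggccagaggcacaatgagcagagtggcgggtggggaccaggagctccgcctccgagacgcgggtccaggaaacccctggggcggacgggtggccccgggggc
Tnfaip3, start 1 of 2, minus strand, chr10:19015411-19015660: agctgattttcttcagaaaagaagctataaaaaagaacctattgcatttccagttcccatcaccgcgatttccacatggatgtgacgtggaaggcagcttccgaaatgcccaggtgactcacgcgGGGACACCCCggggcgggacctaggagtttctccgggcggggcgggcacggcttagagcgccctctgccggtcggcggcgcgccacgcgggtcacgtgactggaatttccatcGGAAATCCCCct

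Nfkbib is shown as the gene without a peak, and its sequence holds no capitals. Nfkbid has 3 listed starts, and the summit lay before the second, which is inside the body of the gene, so the sequence before that start is the one shown. The match of Bcl3 to the kB consensus lies after its start, at bases 3 to 12, and reads GGGAAGTCCC.

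Among the classical inhibitors, Nfkbie and Nfkbia held a peak at the start and Nfkbib did not. Nfkbie, which encodes I-kappa-B-epsilon, had the highest of these, with 12.4-fold enrichment in a peak of 328 bp at chr17:45555470-45555797. It ranked 1319 of all peaks by fold, and its −log10 q was 36.5. The summit lay 109 bp before the listed start, in the sequence shown above. The second summit in the locus had 7.02-fold enrichment and lay 719 bp past the far end of Nfkbie, but it was 25 bp from the body of the next gene, Slc35b2, and 48 bp from a listed start of that gene. Slc35b2 encodes a Golgi transporter for the sulfate donor PAPS. Of the 2 summits, only the one at the start had Nfkbie as its nearest protein-coding gene.

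Nfkbia encodes I-kappa-B-alpha, the inhibitor that is degraded and made anew in each round of NF-kB activity. Its main peak had 8.63-fold enrichment and a −log10 q of 33.7, and it ran over 1100 bp at chr12:55491777-55492876. No more than 30 of the 27050 peaks (0.111%) were as wide, and the median width was 227 bp. The summit lay inside the gene, 649 bp after the start, while the peak reached back over 279 of the 300 bases of the promoter window. The second summit, of 4.45-fold enrichment, lay 6607 bp before the start, inside the long non-coding RNA gene Gm36634 and 457 bp from an end of it. It ranked 22785, in the lower part of the list. The table used gives the bodies of genes and not their exons, so a summit inside a gene could not be placed in an exon, an intron or a UTR.

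No summit lay in the locus of Nfkbib, which encodes I-kappa-B-beta, another cytoplasmic inhibitor. The nearest summit was 13577 bp from the gene body, inside the neighbouring gene Sirt2, and had 5.92-fold enrichment. The next, also inside Sirt2, had 8.48-fold enrichment at 14348 bp. Sirt2, a deacetylase gene, starts 108 bp from the start of Nfkbib on the other strand, and Sirt2 had no summit within 1000 bp of its ends either. With 50 kb on each side 9 summits were found around Nfkbib, and each had another gene as its nearest.

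Of the 3 nuclear I-kappa-B genes, Bcl3 had the highest peaks and the most summits, Nfkbiz had 5 of 3.35-fold to 6.66-fold, and Nfkbid had 2. Bcl3 encodes a nuclear partner of p50 and p52 dimers. From the upstream side of the gene, its summits had 9.45-fold enrichment at 1621 bp before the listed start, 10.9-fold at 105 bp before it, 12.9-fold at 5197 bp after it and 9.45-fold at 6307 bp after it. The remaining summits, of 4.60-fold and 3.37-fold, lay 7429 and 8404 bp beyond the far end of the gene and were nearer to Cblc, which encodes a ubiquitin ligase. So the 4 summits nearest to Bcl3 were each above the upper quartile of the list, and both summits nearer to Cblc were below the lower quartile.

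The 12.9-fold peak of Bcl3 at chr7:19817318-19817750 was the highest of all 19 and ranked 1094 of the list, with a −log10 q of 45.9. It lay in the body of Bcl3 and also inside the long non-coding RNA gene Gm16174, 973 bp from an end of that gene, so it cannot be assigned to either gene by position. The 9.45-fold summit next to it lay in Bcl3 and 137 bp outside Gm16174. Both peaks of 9.45-fold had the same −log10 q of 28.8. Equal values were common in this list, where 92.3% of the peaks shared their fold and −log10 q with another peak. As many summits as the 6 of Bcl3 were found in 3.10% of all protein-coding loci and in 0.978% of the 7671 genes with 0.5 to 2 times the body length of Bcl3. The 6 include the summits nearer to Cblc.

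Nfkbiz encodes I-kappa-B-zeta, which in mouse works with the ROR nuclear receptors in the development of Th17 cells. Its 5 summits had 6.07, 6.66, 6.36, 3.35 and 4.76-fold enrichment in genomic order, and none reached the upper quartile of the list. The first lay 5485 bp below the lower end of the gene and the other 4 inside it. The pair of 6.66-fold and 6.36-fold lay at 9684 and 10959 bp from the lower end, and the last summit 85 bp from the upper end. All 5 had Nfkbiz as the nearest protein-coding gene. As many summits were found in 5.26% of all protein-coding loci and in 3.75% of the 7734 genes with 0.5 to 2 times its body length. Nfkbia, Nfkbie, Nfkbid and Tnfaip3 had 2 summits each, and 30.4% of all protein-coding loci had as many. Among genes with 0.5 to 2 times their body length, the shares ran from 19.6% for Nfkbia to 29.2% for Tnfaip3.

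Nfkbid encodes I-kappa-B-NS, an atypical inhibitor induced by T cell receptor signals. Its summits had 6.31-fold and 5.48-fold enrichment, close to the median of the list. The first lay 98 bp before the second listed start and 577 bp after the first, in a peak at chr7:30422177-30422427. The other lay 2122 bp before the first start, inside Hcst and 245 bp from the start of that gene, which encodes the adaptor DAP10. Of the 6 genes with a peak, Nfkbid had the lowest highest fold, and 60.6% of the protein-coding genes with a summit had a fold as high or higher in their loci.

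**Figure D2:**
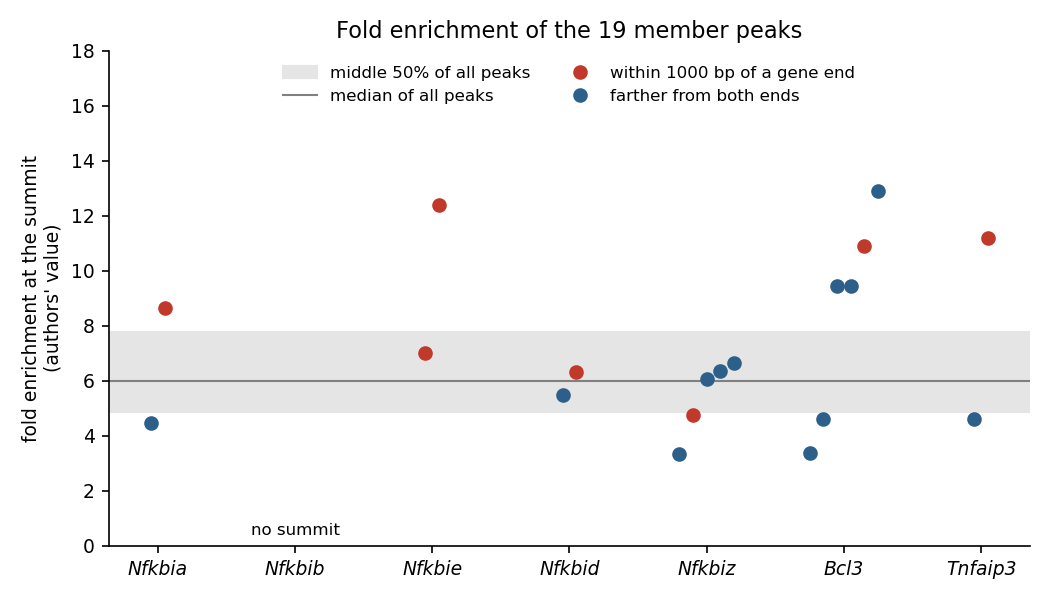
Authors' fold enrichment of each of the 19 peaks, by gene, with the median (line, 6.00) and quartiles (band, 4.87 to 7.76) of all 27050 peaks. The points above 10 belong to Bcl3, Nfkbie and Tnfaip3, and those of Nfkbid and Nfkbiz lie in the band or below it.

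At Tnfaip3 a single high peak covered the start. It had 11.2-fold enrichment and a −log10 q of 38.6, lay at chr10:19015168-19015620 and ranked 1948 of the list. Its summit was 47 bp before the first listed start, and no summit lay within 1000 bp of the second start, whose peak-free window is not shown. The other summit of the locus had 4.60-fold enrichment at 4352 bp beyond the far end. Tnfaip3 had 6 further summits within 50 kb, at 11433 to 47274 bp from the body and of 3.98-fold to 6.53-fold, and each of them had Tnfaip3 as its nearest protein-coding gene. Of the 7 genes, only Nfkbia also had outer summits nearest to itself, with 4 of 3.81-fold to 5.55-fold at 22393 to 31596 bp.

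As a set, the 19 peaks had a median fold of 6.36 against 6.00 for the whole list, and 12 of them were at or above the median of the list. The 4 peaks of 10-fold or more made up 21.1% of the 19, against 11.1% of all peaks. Peaks within 1000 bp of a member's end had a median of 8.63-fold (7 peaks, 4.76 to 12.4). Those farther away had a median of 5.78-fold (12 peaks, 3.35 to 12.9), so the ranges overlapped. The 7 peaks include the 7.02-fold peak of the Nfkbie locus, whose nearest protein-coding gene was Slc35b2. The same comparison was not made over the whole list. Of the 19 summits, 15 had the gene itself as the nearest protein-coding gene and 8 lay also in the locus of another protein-coding gene. No matching shares over all peaks are given here, so these counts cannot be set against the list. The closest summits beyond the limit of 10 kb were 2 near Nfkbie: 5.18-fold at 10120 bp and 14.2-fold at 10728 bp from its body. Both had Hsp90ab1 as the nearest protein-coding gene. The next were 4.75-fold at 11073 bp from Bcl3, nearest to Cblc, and 4.86-fold at 11433 bp from Tnfaip3, nearest to Tnfaip3 itself. The summits farthest inside the limit were those of Bcl3 at 8404 and 7429 bp.

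At the listed starts, with strand taken into account, 5 of the 6 genes in the promoter table had a summit within 1000 bp. The background was 34.8% of the 17492 protein-coding genes in that table. The start folds were 12.4 at Nfkbie, 11.2 at Tnfaip3, 10.9 at Bcl3, 8.63 at Nfkbia and 6.31 at Nfkbid. The median of the start-occupied genes was 6.07, with an upper quartile of 7.77, so 4 of the 5 genes were above that quartile and Nfkbid was near the median. A start fold of 10 or more was found at 3 of the 6 genes, against 3.48% of the genes in the table and 9.99% of those with a summit at a start. For Nfkbie 3.50% of the start-occupied genes were as high or higher, for Tnfaip3 5.59%, for Bcl3 6.37%, for Nfkbia 18.1% and for Nfkbid 45%. With 1 value per peak, the order of neighbours in this ranking has no error attached.

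**Figure D3:**
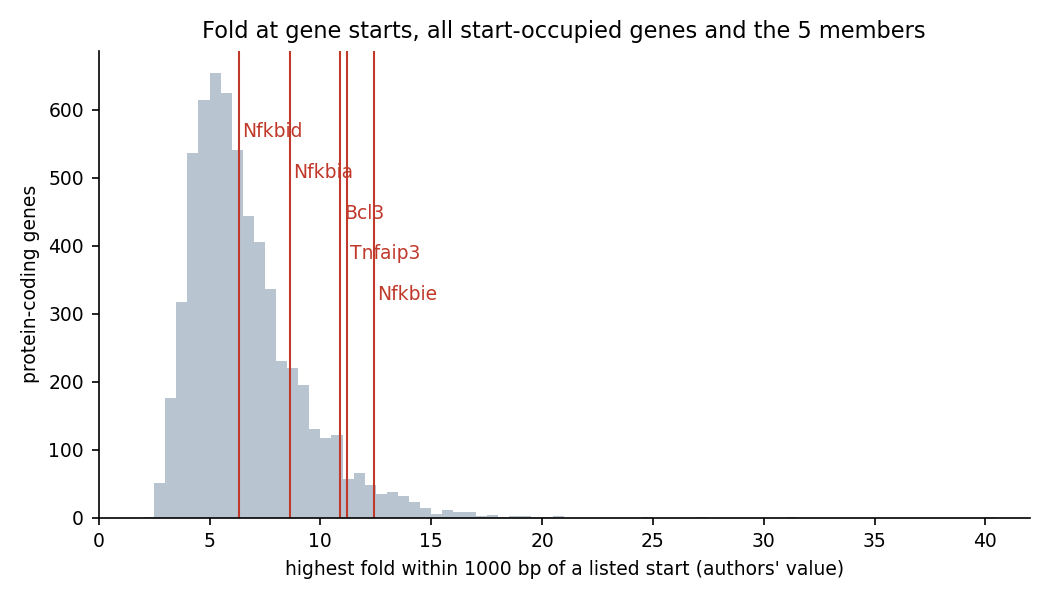
Histogram of the highest authors' fold within 1000 bp of a listed start, over all protein-coding genes of the promoter table with a summit there (horizontal axis, fold; vertical axis, number of genes). Red lines mark the 5 genes, from 6.31 at Nfkbid to 12.4 at Nfkbie.

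The promoter windows of the 6 genes shared a feature that the choice by position did not use: 5 of the 6 genes had a match to the kB consensus in a window, all except Nfkbib. Such a match was found in 10.5% of the genes of the table, in 9.25% of the 21263 protein-coding windows and in 10.9% of the 4843 windows that held a summit. Genes of this family, Nfkbia and Tnfaip3 among them, are textbook targets of NF-kB, so this match is not an independent finding about the peaks. Tnfaip3 and Nfkbid had 2 matches in 1 window, and 1.35% of all windows had 2 or more. Genes with 2 or more listed starts, such as these, have more windows in which to find a match. A match describes letters, and binding of NF-kB was not measured.

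The summits lay at different distances from these matches. At Nfkbie the centre of the match, GGGGGATTCC, was 8 bp from the summit. At Tnfaip3 the nearer match, printed as GGAAATCCCC in the sequence above, was 39 bp away, and the other, GGGACACCCC, 74 bp away. For Nfkbid the distances were 78 bp and 123 bp, and for Bcl3 111 bp. In the 528 windows of all genes that held both a match and a summit, the median distance to the nearest match was 70.0 bp, with quartiles of 33.0 and 124 bp, and 7.39% had a distance of 8 bp or less. The match of Nfkbia, GGAAATTCCC at 29 to 20 bases before the start, lay under its wide peak, but the summit was outside the window.

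When the first base of the consensus was left free, a form found in 29.2% of windows, the same count of 5 genes had a match. The looser form added a place in Bcl3 that reads AGGAAACCCC, at 105 to 96 bases before the start, with its centre 4 bp from the summit. It also added a place in each of the other 4 genes with a match: TGGAATTTCC at 25 to 16 bases before the start of Tnfaip3, 26 bp from the summit, CGGAAGCTCC at 77 to 68 bases before the start of Nfkbie, 37 bp from the summit, CGGGGATTCC at 166 to 157 bases before the second start of Nfkbid, 63 bp from the summit, and AGGACTTTCC at 179 to 170 bases before the start of Nfkbia. Matches on opposite strands of nearly the same bases were counted as 1 window with a match.

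**Figure D4:**
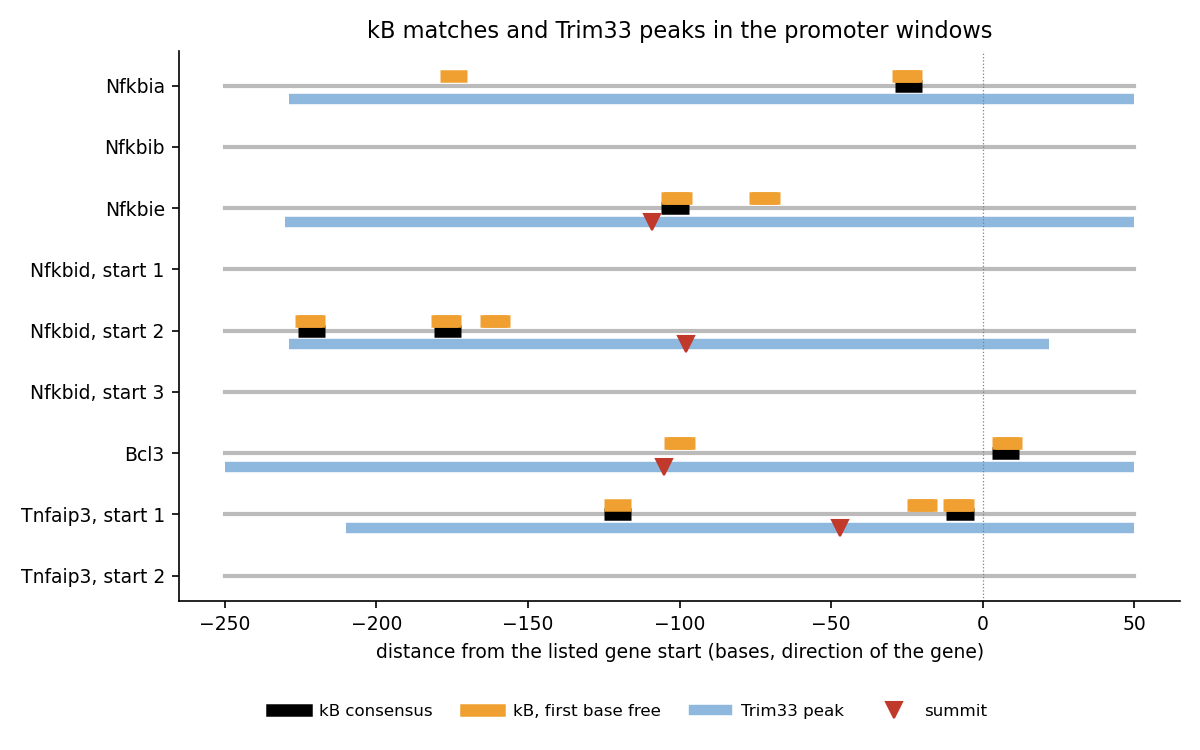
Promoter windows of the 6 genes, from 250 bases before to 50 bases after each listed start (horizontal axis, bases from the start in the direction of the gene). Black bars are matches to the kB consensus, orange bars matches with the first base free, blue bars the Trim33 peaks and triangles their summits. Peaks overlap 5 of the 9 windows, and these are the 5 with a kB match, but the summit of Nfkbia lay outside its window. The share of all windows that a peak overlaps was not computed. Over all protein-coding windows, a summit lay in 26.8% of those with a kB match and in 22.4% of those without.

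The other elements were found in 1 to 5 of the 6 genes. The AP-1 element TGANTCA was found in the windows of Nfkbie and Tnfaip3, 2 of the 6 genes, and in 6.99% of all windows, with its centre 44 bp and 86 bp from the summits. The SMAD element CAGAC was found in 5 of the 6 genes, all except Nfkbie, but it is short and 48.4% of all windows held it. The longer SMAD palindrome GTCTAGAC was found at the second start of Tnfaip3, where no peak lay, and in 0.226% of all windows. The ETS element CCGGAAG was found in Nfkbie alone of the 6 genes, against 11.6% of all windows and 26.0% of those with a summit. The STAT element TTCNNNGAA and the ROR element AGGTCA were found in Nfkbid and in no other of these genes, in windows without a peak, and in 7.69% and 14.7% of all windows. The RUNX element TGTGGT was found in the third window of Nfkbid, which had no peak either, against 15% of all windows. The E-box CACCTG was found at Nfkbid and Tnfaip3, against 19.7%, and it overlapped the SMAD element in the former and AP-1 in the latter. All elements were sought on both strands. The shares count windows, and the 6 genes have 9 windows, so a count of genes is not the same measure. Of the 9 windows, 5 held the SMAD element, and 2 each held AP-1, STAT and the E-box. The SMAD palindrome, ETS, ROR and RUNX elements were each in 1 window.

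Base composition moved with occupancy in the whole table, where windows holding a summit had a median GC content of 64.3% and 25 CpG dinucleotides, and those without had 53.7% and 8. The 4 windows with a member summit had 56.7% (Tnfaip3), 58.0% (Nfkbie), 68.0% (Nfkbid, start 2) and 69.0% (Bcl3), with 22, 16, 35 and 26 CpG dinucleotides. The window of Nfkbib, without a peak, had 56.3% and 20 CpG dinucleotides, which is inside the range of the 4 for CpG and just below it for GC. The part of base composition in the occupancy of these genes was not tested.

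Other genes of the NF-kB pathway were described from a list of 46 genes in 7 groups. Of these, 43 (93.5%) had a summit in the locus, 35 (76.1%) had one within 1000 bp of a gene end and 12 (26.1%) had a peak of 10-fold or more, beside the shares of 53.9%, 33.4% and 10.1% over all protein-coding genes. The median of the highest fold in the occupied loci was 7.59, against 7.03 over all occupied protein-coding genes. The median body length was 34023 bp in the list, 8394 bp in the 7 genes and 17169 bp over all protein-coding genes. Of the 18 listed genes within the range of body lengths of the 7 genes, a comparison added after seeing the data, 18 had a summit in the locus and 6 (33.3%) a peak of 10-fold or more, beside 54.9% and 8.09% of all protein-coding genes in that range.

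The 5 subunit genes of NF-kB each had a summit but none of 10-fold, with 9.30-fold at Rel, 9.24-fold at Relb and 8.33-fold at Nfkb1. In the group that assists or resembles A20, 4 of 10 genes reached 10-fold: Tnip1 and Otulin with 12.4-fold each, Cyld with 11.4-fold and Rnf11 with 10.9-fold. Tnip1 encodes a protein that binds A20, and Otulin and Cyld encode deubiquitinases. Among ligases and adaptors, Birc3, which encodes the ubiquitin ligase cIAP2, had 17.2-fold at its start, Traf1 11.7-fold and Birc2 10.6-fold. In the kinase group Tab1 had 16.6-fold and Map3k14, the kinase of the alternative pathway, 12.6-fold, while Ikbke had 7.79-fold. Malt1, a protease that acts between the T cell receptor and NF-kB, had 15.7-fold, and Bcl10, which encodes its binding partner, had 7.89-fold.

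Of the RNA regulators, Arid5a had 10.1-fold, Zc3h12a 8.56-fold and Zc3h12d 8.12-fold. Zc3h12a encodes Regnase-1, a nuclease that destroys inflammatory transcripts. Nfkbil1, which resembles the I-kappa-B genes, had 10.8-fold. No summit was found in the loci of Tbk1, Itch and Ankrd42. Of the 36 listed genes in the promoter table, 9 had a kB match in a window and 30 had a summit at a start, beside 10.5% and 34.8% of all genes of that table. Of the same 36 genes, only Birc3 and Birc2 had 10-fold or more at a listed start, beside 3.48% of all genes of the table. Among the other genes with a 10-fold peak in the locus, the start folds were 6.61 at Map3k14, 6.22 at Cyld, 5.79 at Otulin, 5.61 at Arid5a and 4.02 at Nfkbil1. Traf1, Tnip1 and Rnf11 had no summit within 1000 bp of a gene end, and Tab1 and Malt1 have no listed start. A peak in a locus can lie nearer to a neighbouring gene, as at Nfkbie, and the nearest gene was not determined for the list.

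**Figure D5:**
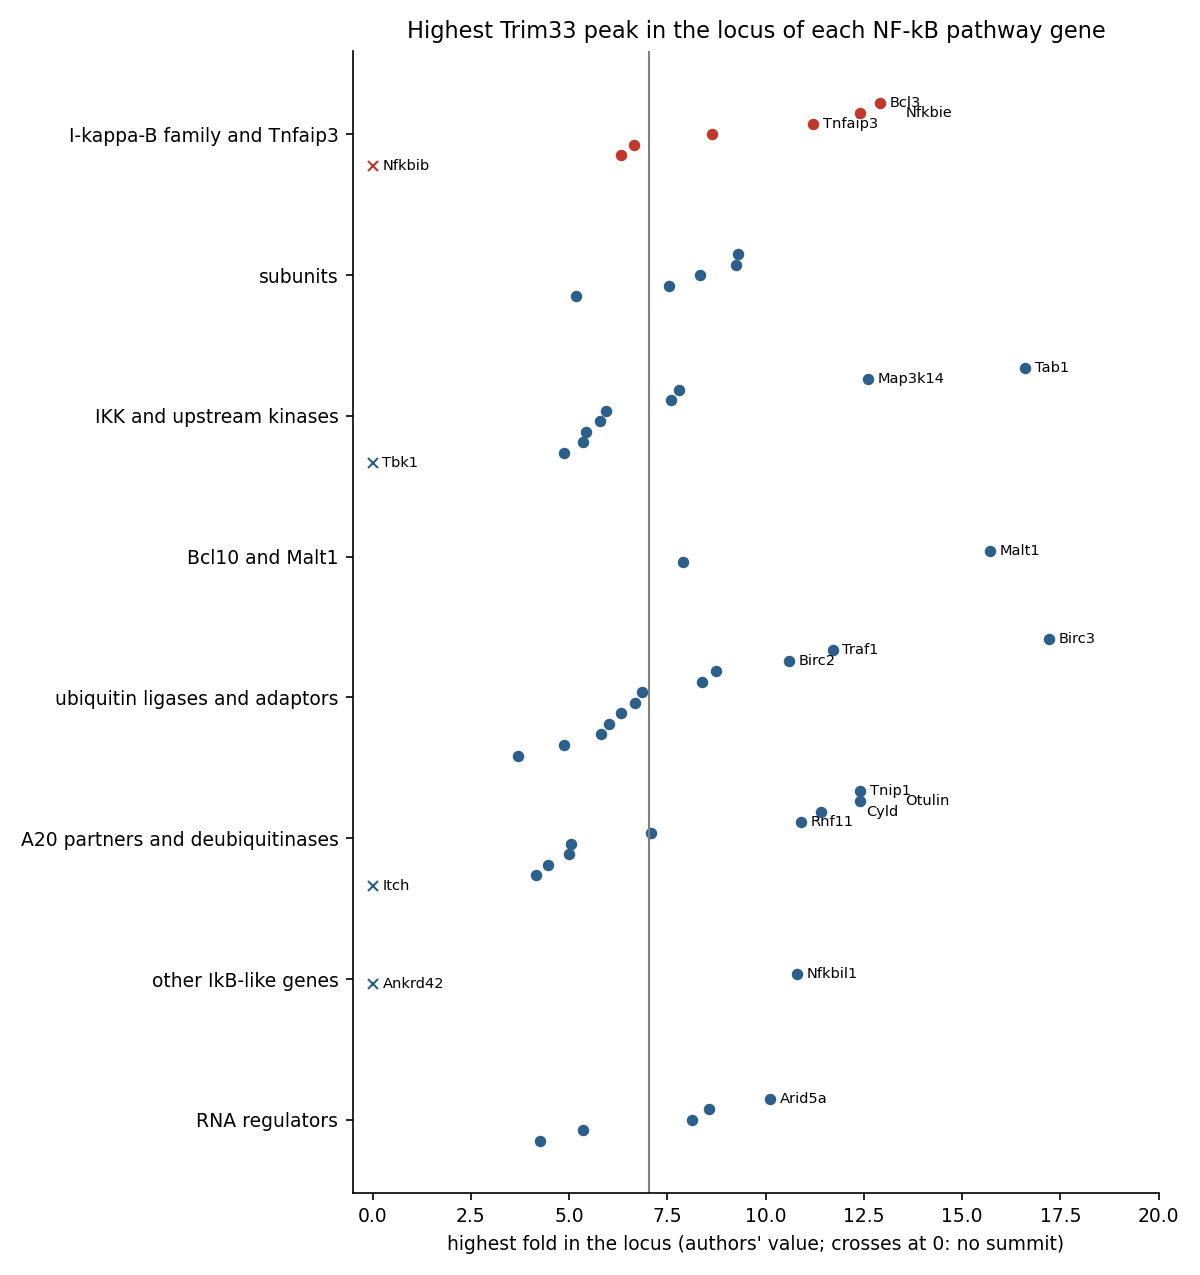
Highest authors' fold in the locus of each gene (horizontal axis), for the 7 genes (red) and the 46 other pathway genes by group (blue). Crosses at 0 are genes with no summit, names mark genes at 10-fold or more or without a summit, and the grey line is the median of all occupied protein-coding genes (7.03).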

How the data were processed

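Genomic DNA was sequenced from 2 Trim33 ChIP libraries and 2 input libraries of cultured Th17 cells. The submitters' processing notes name the build mm10, the peak caller MACS2 2.1.1.20160309, the aligner Bowtie 1.2.1.1 and the trimmer Trim Galore 0.3.7. Their settings, the threshold and the control for calling are not given in the sources used. The authors deposited 1 peak list from merged replicates, so a site needs enough reads in the 2 libraries together and not in each. For each peak it holds the authors' fold enrichment (a ratio), −log10 p-value and −log10 q-value at the summit, and a score (10 times the −log10 q, cut to a whole number, in 100% of peaks), which was not used.

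Summits were assigned with Python 3.11.15 and pandas 2.3.3 to genes of a RefSeq table of GRCm38.p6. Coordinates are counted from 1. Motifs were sought on both strands in RefSeq promoter windows, since no genome was used here, so the planned search around all summits was not run. Assignment and motif search were checked on simulated data. No test between samples was possible, so no p-value is given. The 7 genes, the pathway list and the motifs were chosen with earlier results of these data known. All summits of the 7 genes are reported. 1 gene of the planned pathway list is not reported here. From the pathway list the text names genes of 10-fold or more, the 3 with the highest fold in a role where fewer reached 10-fold, and those without a summit. Alternatives were other flanks and windows, stricter peak sets, nearest-gene assignment, overlap in place of summits, other backgrounds and, added after seeing the data, start windows, a looser kB form and a length range for the pathway list.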

Additional observations from a re-analysis of the deposited data

How the results depend on the processing

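The 19 summits in the loci became 8 in gene bodies alone, 48 with 50 kb on each side, 12 with peaks at or above the median fold or at or above the median −log10 q, and 4 with peaks of 10-fold or more, by construction of these sets. The share of all protein-coding genes with a summit moved with them, to 33.0% in gene bodies, 35.8% in each of the median sets and 10.1% at 10-fold. The 6 genes with a summit became 4 in gene bodies alone, 7 with 50 kb on each side (71.5% of all protein-coding genes) and 3 at 10-fold. The 6 genes with a summit at a gene end became 4 with a window of 500 bp (29.8%). The 5 genes with a summit at a listed start became 4 with windows of 250 bp (29.4%) and 500 bp (32.9%). The highest fold changed with 50 kb, to 14.2 for Nfkbie and 7.29 for Nfkbid. It was unchanged in 41 of the 43 values run under the alternatives. A stricter peak set can only keep the highest fold or leave a gene without a value, so those unchanged values were fixed in advance. Genes that lost their summits under an alternative are not among the 43. These were Nfkbie and Tnfaip3 in gene bodies alone, and Nfkbia, Nfkbid and Nfkbiz at 10-fold. The kB consensus with its first base free was found in 29.2% of windows, as a looser form must be. Of the 41 other counts and shares under alternatives 30 stayed within 1.5 times of the value reported. Depth, and thus the height at which a peak could be missed, is unknown, so the empty Nfkbib locus shows that no peak was called there and not that Trim33 is absent. No paired analysis was possible because the replicates had been merged before peaks were called, and for the same reason no replicate could be left out. The motif search around summits and in peak intervals was not run, since no genome was used here.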
